A study of Mus musculus with 4 samples.

Results

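The 5 genes for the subunits of the transcription factor NF-kB (Nfkb1, Nfkb2, Rel, Rela and Relb) and 5 genes for its inhibitors (Nfkbia, Nfkbib, Nfkbie, Nfkbid and Nfkbiz) were followed in splenic CD4 T cells of mice. They are defined by gene symbol, 10 of the 32285 genes counted, and the rule uses no measured value. Sorted CD3+CD4+ splenocytes of C57BL6/J mice were cultured for 6 h with beads carrying antibodies to CD3 and CD28, and single cells were then profiled with droplet 3′ RNA sequencing. Of the 4 libraries, all of them stimulated, 2 carry the label Irf5-/- and 2 the label WT, and each label has 1 library from females and 1 from males. Irf5-/- denotes loss of the gene for interferon regulatory factor 5. The labels name no unstimulated sample, no age and no number of mice per library, so the comparisons of genotype rest on 2 libraries against 2 and measure only the spread between these libraries.

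NF-kB proteins work as dimers that are held in the cytoplasm by inhibitor proteins with ankyrin repeats. Signals from the T cell receptor and CD28 pass through a signalling complex that holds Malt1 to the IkB kinase, the classical inhibitors encoded by Nfkbia, Nfkbib and Nfkbie are then degraded, and dimers of Rela, Rel and the product of Nfkb1 enter the nucleus. Nfkb2 and Relb belong to the slower alternative branch, while Nfkbid and Nfkbiz encode nuclear members of the inhibitor family that bind dimers at target genes. Several of these genes are themselves textbook targets of NF-kB. In regulatory T cells, the suppressive subset marked by Foxp3, Rel and Nfkbid are known to act in the development of the subset.

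Since several of these genes are known targets of NF-kB, the windows from 250 bases before to 50 bases after each annotated start were searched on both strands for the 10-base NF-kB consensus. RefSeq windows of the build GRCm38.p6 were matched for 7 of the 10 genes, and Nfkb1, Relb and Nfkbiz were not matched. The consensus stood in windows of 5 of the 7 matched genes, against 9.55% of the 27025 genes and 8.46% of the 32851 windows in the same table. Stretches with a match, outside the exons of their gene, are shown because these genes are the ones whose levels are given below; capitals mark letters within a match on either strand, and each sequence reads in the direction of its gene.
Nfkbid, chr7:30422170-30422244, + strand: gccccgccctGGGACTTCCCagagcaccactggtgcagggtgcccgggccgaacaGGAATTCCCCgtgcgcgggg
Rel, chr11:23771041-23771071, - strand: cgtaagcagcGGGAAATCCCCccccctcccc
Nfkbia, chr12:55492657-55492686, - strand: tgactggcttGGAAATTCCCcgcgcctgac
Nfkbie, chr17:45555584-45555613, + strand: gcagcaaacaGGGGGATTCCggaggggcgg
Nfkb2, chr19:46305449-46305478, + strand: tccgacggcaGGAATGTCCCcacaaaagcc
The Nfkbid stretch holds 2 separate matches and the Rel stretch 2 overlapping ones. Further matches of Nfkb2 lay in windows that overlap its exons. For Rela and Nfkbib the letters were not found in these windows. A match describes the letters only; binding was not measured.

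Cells were barcodes with at least 2000 UMIs, at least 500 genes and at most 10% mitochondrial UMIs, 19100 in all and between 1814 and 6543 per library. Median depth ran from 5104.5 to 9661 UMIs per cell, and was higher in the libraries labelled WT. A UMI of the T cell receptor complex was found in 97.9% to 99.5% of cells, a Cd4 UMI in 20.5% to 36.0%, and at least 4 UMIs of B, NK, erythroid, myeloid or CD8 markers in 144 cells. Irf5 went against the labels, with 8.57 and 9.07 CPM (UMIs of a gene scaled to 1000000 UMIs of all genes) in the female and male libraries labelled Irf5-/- and 0.936 and 1.18 CPM in those labelled WT. The genotypes are therefore named throughout as the library labels give them, and if the labels were exchanged every direction by label given below would turn. The cause of these Irf5 levels was not tested. The female library labelled WT stood apart in free RNA, with 55.6% of its UMIs in cells against 83.2% to 89.2% in the others. Pairs of libraries shared 2 to 14 cell barcodes.

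No library was left unstimulated, so resting and activated cells were separated within each library by a score on 13 activation genes (such as Egr2, Nr4a1 and Cd69) and 13 resting genes (such as Klf2, Lef1 and Tcf7), none of them among the 10 genes described. Each cell was first thinned to 2000 UMIs, the score was the log2 ratio of the 2 sums plus 1, and cells at or below -1 were called resting and those at or above 1 activated. This gave 4963 resting, 5092 intermediate and 9045 activated cells. A resting cell had a median of 1 thinned UMI of the activation genes and 10 to 12 of the resting genes, against 14 to 16 and 3 in an activated cell. The states are ranges of a score: 562 cells lay within 0.25 of the lower limit and 2283 within 0.25 of the upper one. Activated cells were deeper, with medians of 5634 to 10668 UMIs against 3373 to 6198.5 in resting cells. Levels are given as CPM over all cells of one state in one library, and fold changes come from edgeR on those sums with the library as a block.

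All 10 genes were higher in activated than in resting cells, beside a background of 82.2% of 11278 genes called in either direction, 40.4% higher and 41.8% lower. Because so many genes differed between the states, the sizes say more than the count: the median log2 fold change of the 10 genes was 1.39, against -0.04 over all genes. The fitted differences spanned from 1.36-fold for Nfkbie to 26.1-fold for Nfkbid, whose low resting level is set beside that of control cells below. Without TMM scaling the median of all genes moved by -0.23 on the log2 scale, and Nfkbie was then the only one of the 10 not called (0.21, adjusted p = 0.0507).

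Among the subunits, Nfkb1, which encodes the precursor of a DNA-binding subunit without a transactivation domain, had 255, 257, 222 and 194 CPM in resting cells of the female Irf5-/-, female WT, male Irf5-/- and male WT labelled libraries, in the order used from here on. In activated cells it had 1089, 1300.3, 1133 and 1052 CPM. The lowest activated value was more than 4 times the highest resting one, and the log2 fold change was 2.54 ± 0.05 (SE; adjusted p = 8.3e-14). Rel, the subunit c-Rel that T cells need for full interleukin-2 production, stood at 187, 163, 175 and 140.1 CPM in resting cells and at 565, 635, 629 and 546 CPM in activated cells. The groups did not overlap (log2 fold change 2.07 ± 0.06, adjusted p = 1.1e-12).

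Nfkb2, the precursor of the alternative branch, rose less, from 69.1 to 75.4 CPM in resting cells to 162 to 184 CPM in activated cells (1.47 ± 0.05, adjusted p = 4.9e-12). Its partner Relb went from 70.6 to 88.2 CPM to 168 to 178 CPM (1.31 ± 0.05, adjusted p = 5.2e-11). Rela, the main transactivating subunit of the classical pathway, had the smallest rise of the subunits, from 48.5 to 59.4 CPM to 97.5 to 114 CPM (1.15 ± 0.07, adjusted p = 2.1e-09). In none of these genes did the ranges of the states overlap over the 4 libraries. The share of all genes without such an overlap is not given, for the states or for Foxp3 cells. Lack of overlap is therefore not read as particular to any gene described here. Within single libraries the CPM ratio of activated to resting cells was 4.28 to 5.43 for Nfkb1, 3.02 to 3.90 for Rel, and 1.65 to 2.48 over Nfkb2, Rela and Relb.

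Among the inhibitors, Nfkbid had the largest difference of the 10 genes. It had 19.8, 17.9, 21.01 and 23.6 CPM in resting cells and 445, 505, 462 and 470.4 CPM in activated cells, and the groups were far apart. The fitted log2 fold change was 4.71 ± 0.06 (adjusted p = 6.8e-15), and within libraries the CPM ratio ran from 19.9 to 28.2. A Nfkbid UMI was found in 6.05% to 12.3% of resting cells (median depth 3373 to 6198.5 UMIs) and in 67.2% to 81.8% of activated cells (5634 to 10668 UMIs). In 34 cells with erythroid markers, which should lack the gene, the share was 14.7% at a median depth of 18826 UMIs and the level 42.7 CPM. These were 30 UMIs in 5 of the 34 cells. The resting level of Nfkbid was no higher than in those cells. With its UMIs in 5 of the 34 cells, this control sets no firm background level. Whether the resting UMIs of Nfkbid are expression was not tested. Ratios of Nfkbid to resting cells, or to bin 1 of the score, are set by its low resting level and are not firm sizes. The cells with erythroid markers held 25.6 CPM of Nfkbie, above its resting and activated levels given below. They held 196 CPM of Nfkb1, close to its lowest resting value. The other 7 genes were at 7.12 to 276 CPM there, each below its lowest resting value, and Nfkbie was the only gene of the 10 whose activated levels were not above those of these cells. In droplets with under 200 UMIs, which hold free RNA, Nfkbid stood at 153 to 272 CPM, Nfkb1 at 536 to 650 CPM, Rel at 229 to 284 CPM and Nfkbia at 419 to 603 CPM. Free RNA was above the resting level in every library for 8 of the 10 genes, the exceptions being Nfkbie in the male and Nfkbiz in the female library labelled WT. Its part in the resting levels was not tested.

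Nfkbib, a classical inhibitor, went from 46.0, 36.2, 46.0 and 42.6 CPM in resting cells to 121, 115, 120.5 and 118 CPM in activated cells, a log2 fold change of 1.69 ± 0.06 (adjusted p = 8.7e-12). Nfkbia, the inhibitor whose rapid resynthesis ends a pulse of NF-kB activity, went from 354, 324, 332 and 296 CPM to 590.2, 527, 602 and 501 CPM (1.00 ± 0.04, adjusted p = 3.1e-11). The states did not overlap for either gene. Nfkbiz, which encodes a nuclear inhibitor family member that can also activate secondary response genes, had 56.4, 58.2, 55.6 and 37.0 CPM in resting cells and 74.6, 70.6, 72.7 and 67.2 CPM in activated cells (0.73 ± 0.09, adjusted p = 3.0e-06).

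Nfkbie, the third classical inhibitor, had the smallest difference. Its resting levels of 17.8, 14.1, 16.4 and 20.2 CPM overlapped with its activated levels of 19.9, 21.2, 19.6 and 20.7 CPM. The male library labelled WT differed least, with a CPM ratio of 1.03 (log2 fold change over all libraries 0.44 ± 0.09, adjusted p = 4.5e-04). Reads of Nfkb2 and Nfkbib could include some from genes on the other strand that overlap them (Psd and AC114539.1, and Ccer2 and Sirt2), and Nfkb1 shares 3897 bases with Gm43430 on its own strand. The use of strand in counting is not given in the sources used here.

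**Figure D1:**
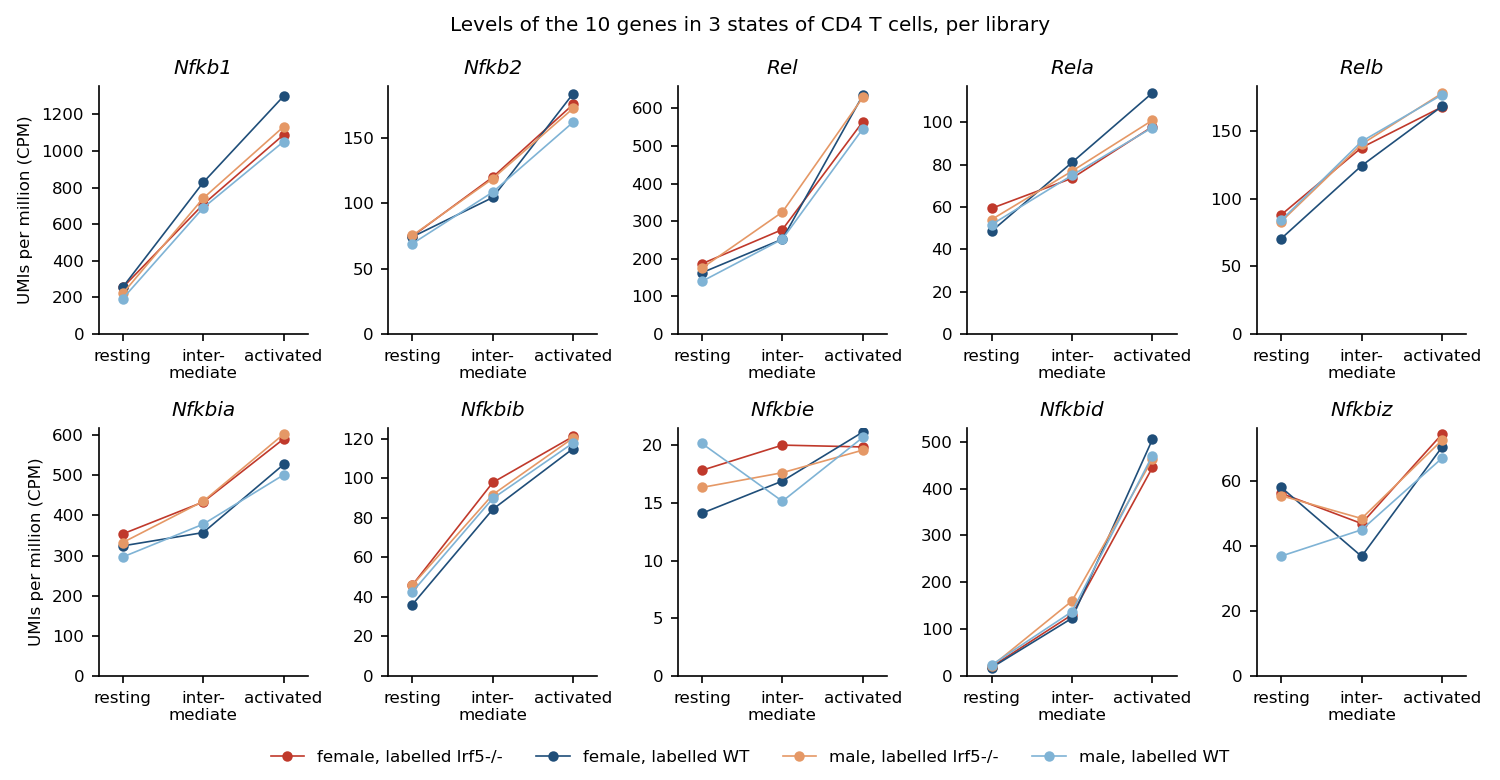
Level of each gene in CPM (y axis from 0) in resting, intermediate and activated cells (x axis), with 1 line per library. Nfkbid, Nfkb1 and Rel climb most steeply in every library, Nfkbie stays between 14.1 and 21.2 CPM, and Nfkbiz is lower in intermediate than in resting cells in 3 of the 4 libraries.

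Summed over the 5 genes of each kind, subunit transcripts went from 539 to 664 CPM in resting cells to 2035 to 2402 CPM in activated cells, and inhibitor transcripts from 419.7 to 494 CPM to 1177 to 1277 CPM. There were 0.734 to 0.779 inhibitor UMIs per subunit UMI in resting cells and 0.516 to 0.597 in activated cells, without overlap between the states. The make-up of the inhibitor pool differed more. Nfkbia made up 70.5% to 71.9% of inhibitor UMIs in resting cells and 42.5% to 47.2% in activated cells, while Nfkbid went from 3.98% to 5.63% to 35.6% to 40.8%. Nfkb1 made up 36.0% to 41.8% of subunit UMIs in resting and 51.2% to 54.1% in activated cells. UMIs count 3′ ends and are not per length, so these shares are compared between states and not between genes.

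The genes differed in where along the score they moved, which was described in 8 bins with equal numbers of cells. From the first to the third bin Nfkb1 had reached 45.9% of its level in the highest bin (160 CPM in bin 1, 618 in bin 3 and 1346 in bin 8, means of the 4 libraries) and Nfkbib 62.3% (32.0, 82.8 and 133 CPM). As a share of the level in the highest bin, Rel and Nfkbid were lower in bin 3, at 26.9% (164, 219 and 816 CPM) and 12.4% (12.3, 91.1 and 733 CPM). The order depends on the scale: as a ratio to bin 1, Nfkbid was the highest of the 10 genes in bin 3, at 7.39 against 3.87 for Nfkb1 and 1.34 for Rel. The mean levels of Nfkbid, Nfkb1, Nfkbib and Nfkbie in bin 1 lay below those in cells with erythroid markers. Their ratios to bin 1 are therefore not firm sizes. Rel hardly differed between the first 2 bins, at 164 ± 17 and 169 ± 25 CPM (SD, n = 4 libraries), where Nfkb1 went from 160 ± 31 to 276 ± 40 CPM. Nfkbiz was on average lowest in bin 3, with 54.3 ± 14.0 CPM in bin 1, 39.6 ± 5.0 in bin 3 and 93.4 ± 4.2 in bin 8. In the male library labelled WT it was lowest in bin 1, at 35.2 CPM against 36.5 CPM in bin 3. Nfkbie moved between 15.2 and 23.5 CPM over all bins. Bin 8 was the highest in each library for all genes but Nfkbia, Nfkbib and Nfkbie, whose highest bin was bin 6 or 7 in 1, 1 and 2 libraries. Median depth rose from 4299 UMIs in bin 1 to 8215 in bin 4 and was 7170.5 in bin 8; the part of depth in the course along the bins was not tested beyond scaling to CPM.

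**Figure D2:**
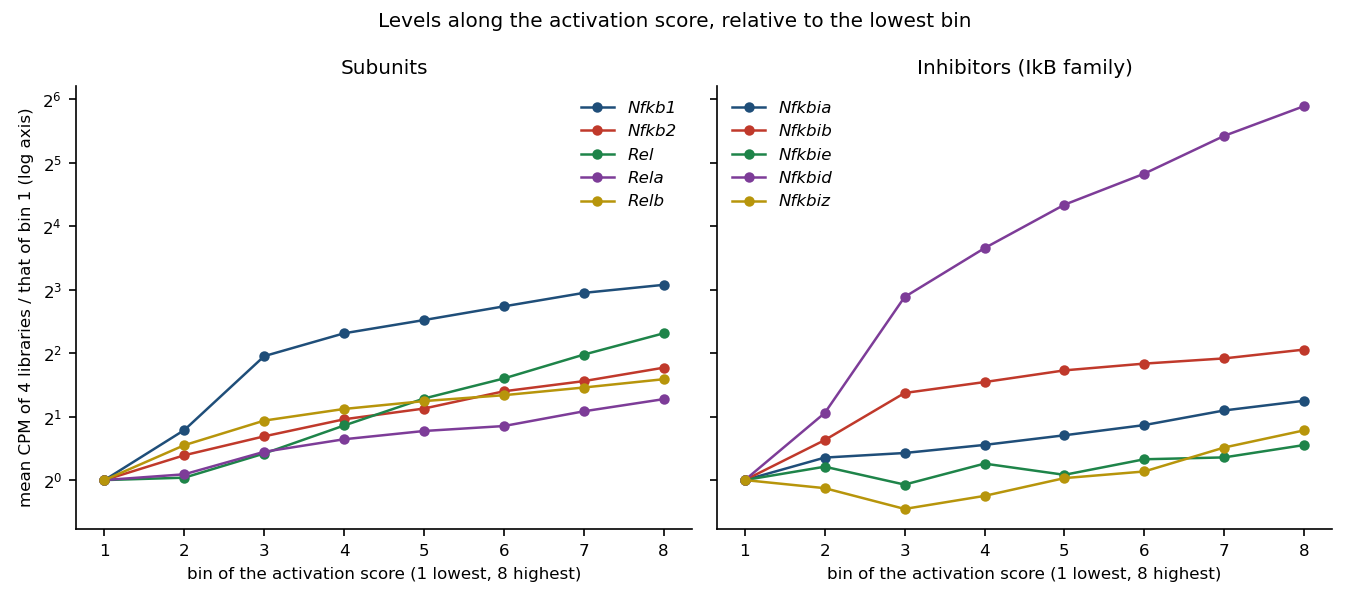
Mean CPM of the 4 libraries in each of 8 score bins (x axis), divided by that of bin 1 (y axis, log scale), for subunits on the left and inhibitors on the right. Nfkbid reaches 59.4 times, Nfkb1 8.44 times and Rel 4.97 times the level of bin 1, whereas Nfkbiz dips to 0.730 in bin 3 and ends at 1.72. Bin 1 of Nfkbid, Nfkb1, Nfkbib and Nfkbie lies below the level in cells with erythroid markers, so their ratios are not firm sizes. In the male library labelled WT Nfkbiz does not dip below bin 1.

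The other genes of the pathway, from a list of 38 signalling genes (kinases, adaptors, ubiquitin ligases and their regulators), moved in both directions between the states. Of 37 tested, 14 were higher and 17 lower in activated cells, with a median log2 fold change of 0.04. The largest rises were those of Malt1 (1.29), a protease of antigen receptor signalling, Traf3 (1.12), which restrains the alternative branch, and Fbxw11 (1.03), a ubiquitin ligase subunit that marks phosphorylated inhibitors for degradation. Among those that fell were Ikbke (-2.32), an IkB kinase relative, and the adaptor Traf5 (-1.83). Of 33 textbook target genes of NF-kB other than the 10 genes, 25 were higher and 8 lower, with a median of 1.51. The largest rises were those of the chemokine Ccl4 (5.33), interleukin-2 Il2 (5.08) and the chemokine Ccl3 (4.15), and the largest falls those of Ccl5 (-3.01), Ier3 (-1.80) and the immunoproteasome subunit Psmb9 (-1.22). The background shares are those given above, and nothing particular to these lists is read from the counts.

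Cells with at least 1 Foxp3 UMI numbered 862. In activated cells they were 143, 17, 175 and 89 cells, and in resting cells 68, 13, 94 and 49 cells, so the female library labelled WT holds few of them. None of the 34 cells with erythroid markers had a Foxp3 UMI, which allows a share of up to 8.82%. In droplets with under 200 UMIs Foxp3 stood at 63.8, 19.9, 44.2 and 28.2 CPM. Its mean over all cells was 23.7 CPM in the libraries labelled Irf5-/- and 10.0 CPM in those labelled WT. The part of free RNA in the choice of Foxp3 cells was not tested. The 7 other regulatory T markers (Ikzf2, Il2ra, Ctla4, Gpr83, Capg, Tnfrsf18 and Lrrc32) were all higher in Foxp3 cells in both states, at 3550 to 4847 CPM in sum against 674 to 834 CPM in activated cells, and 3288 to 4834 against 262 to 438 CPM in resting cells. Cells without a Foxp3 UMI can still be regulatory T cells whose transcript was not caught. Activated Foxp3 cells had scores with medians of 2.00 to 2.26, a little above those of other activated cells at 1.81 to 1.91, and slightly lower depth, at 5470 to 8821 UMIs against 5642.5 to 10737. In resting cells the gap in score was larger, with medians of -2.17, -1.81, -2.17 and -2.12 in Foxp3 cells against -2.81, -2.81, -2.81 and -3.0 in the others, so that resting Foxp3 cells lay nearer to the activated side.

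Within activated cells, 7 of the 10 genes differed between Foxp3 cells and the other cells, 3 of them higher and 4 lower, where 31.6% of 10181 genes were called in either direction, 16.1% higher and 15.5% lower. Nfkbia, Nfkbiz and Rel were higher, Nfkbid, Relb, Nfkb1 and Rela were lower, and Nfkb2, Nfkbib and Nfkbie did not pass the test. The inhibitors thus went in opposite directions, with Nfkbid lower and Nfkbia and Nfkbiz higher in the same cells.

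Nfkbia had 1196, 1192, 1213 and 994 CPM in activated Foxp3 cells and 556, 515, 567 and 482 CPM in other activated cells. Each library had a CPM ratio over 2, from 2.06 to 2.31, and the log2 fold change was 0.90 ± 0.06 (adjusted p = 3.6e-16). Nfkbiz had 108, 111, 157 and 147 CPM against 72.7, 69.9, 67.8 and 64.2 CPM (0.80 ± 0.11, adjusted p = 7.1e-08). Neither gene's values overlapped between Foxp3 cells and the others. Rel had 684, 838, 851 and 888 CPM against 558, 631, 617 and 533 CPM, again without overlap (0.28 ± 0.07, adjusted p = 0.00106), but its difference fell to 0.03 where activated cells were taken from a score of 2 upwards (adjusted p = 0.817).

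Nfkbid had 163, 381, 250.2 and 335 CPM in activated Foxp3 cells and 461, 507, 474 and 476 CPM in the other activated cells. All 4 values lay below the lowest of the other cells, with CPM ratios from 0.354 to 0.752 (log2 fold change -1.08 ± 0.09, adjusted p = 8.6e-13). A Nfkbid UMI was found in 45.5% to 71.9% of Foxp3 cells and 68.3% to 82.2% of other activated cells. Free RNA held 220, 153, 272 and 228 CPM of Nfkbid. Foxp3 cells lay below this in both libraries labelled Irf5-/- and above it in both labelled WT. The part of free RNA in these shares was not tested. In the inhibitor pool of activated cells, Nfkbid made up 10.0% to 20.5% in Foxp3 cells and 37.5% to 41.3% in other cells, and Nfkbia 60.9% to 73.5% and 41.6% to 45.4%. Inhibitor UMIs per subunit UMI were 0.676 to 0.825 in Foxp3 cells and 0.512 to 0.584 in the others.

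The 3 lower subunits had small differences that depended on the scaling. Relb had 121, 229, 146 and 165 CPM in Foxp3 cells against 171, 167, 180 and 177 CPM in other activated cells (-0.42 ± 0.09, adjusted p = 4.7e-04). Nfkb1 had 846, 1337, 1049.9 and 1042 CPM against 1103, 1299.6, 1138 and 1052 CPM (-0.34 ± 0.06, adjusted p = 3.3e-05). In the female library labelled WT, with 17 such cells, both genes were higher and not lower in Foxp3 cells. Rela had 89.1, 69.3, 93.4 and 95.9 CPM against 98.4, 115, 101 and 97.6 CPM (-0.33 ± 0.10, adjusted p = 0.0113). Without TMM scaling the median of all genes moved by 0.19, the 3 genes were no longer called (-0.22, -0.13 and -0.14), and Nfkb2 was called higher (0.37, adjusted p = 5.6e-04, against 0.17 with TMM). Rela was not called under 5 of 14 alternatives, which also held DESeq2 (-0.32, adjusted p = 0.0792), activated cells from a score of 0 (-0.21, 0.0797) and the fit without the male library labelled Irf5-/- (-0.36, 0.0532). Nfkb2 was called under 4, which also held a score from 0 (0.24, adjusted p = 0.00856), at least 2 Foxp3 UMIs (0.26, 0.0471) and the fit without the female library labelled WT (0.21, 0.0402). With all cells thinned to 2000 UMIs only Nfkbia, Nfkbiz and Nfkbid were called, but the sizes for Rel (0.32), Nfkb1 (-0.33), Relb (-0.55) and Rela (-0.26) were near or above those with all UMIs, except for Rela.

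Within resting cells, 2 of the 10 genes were higher in Foxp3 cells and none lower, where 11.0% of 9148 genes were called, 5.68% higher and 5.29% lower. Nfkbiz had 118, 127, 129 and 109 CPM in resting Foxp3 cells and 53.5, 56.5, 51.6 and 34.3 CPM in other resting cells, with no overlap (1.204 ± 0.18, adjusted p = 2.7e-09). Rel had 336, 295, 284 and 184 CPM against 180.3, 159.9, 169.5 and 138.5 CPM (0.58 ± 0.13, adjusted p = 1.9e-04). The lowest Rel value in Foxp3 cells, that of the male library labelled WT, was just above the highest in other cells. With resting cells taken up to a score of -2 Rel was not called (0.46, adjusted p = 0.142). Without the male library labelled Irf5-/- 658 of all genes were called in place of 1004, and both Rel and Nfkbiz were still called.

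Nfkbia, which differed most clearly in activated Foxp3 cells, had 423, 507, 353 and 289 CPM in resting Foxp3 cells and 351, 319, 331 and 297 CPM in other resting cells, which overlap (0.05 ± 0.12, adjusted p = 0.896). With resting cells taken up to a score of 0 it was called higher (0.49, adjusted p = 2.6e-05), and with a limit of -2 the value was -0.11 (adjusted p = 0.884). Nfkb1 had 238 to 338 CPM against 192 to 254 CPM (0.19 ± 0.13, adjusted p = 0.458). Nfkbid rested on 4, 0, 18 and 6 UMIs in resting Foxp3 cells, too few to show a difference at this depth (0.13 ± 0.34, adjusted p = 0.907). Rela was lower in each library, at 28.1 to 45.8 CPM against 49.1 to 59.98 CPM, without passing the test (-0.58 ± 0.24, adjusted p = 0.120). The remaining genes Nfkb2 (-0.18), Relb (-0.42), Nfkbib (-0.69) and Nfkbie (0.15) did not pass either.

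Whether the Foxp3 difference itself changed between resting and activated cells was tested with an interaction term, added after the data were seen, in which 6.46% of 9914 genes were called and 3 of the 10. The difference moved up with activation for Nfkbia, by 0.71 ± 0.13 on the log2 scale (adjusted p = 1.8e-04), and down for Nfkb1 (-0.68 ± 0.14, adjusted p = 7.3e-04) and Nfkbid (-1.40 ± 0.41, adjusted p = 0.0270). The Nfkbid term rests on the few resting UMIs above and was not called under 8 of 14 alternatives, among them leaving out the male library labelled Irf5-/- (-0.62, adjusted p = 0.678). Without that library 422 of all genes were called in place of 640, and 426 without the female library labelled Irf5-/-. With thinned cells the Nfkbid term was -0.05 (adjusted p = 0.996). The Nfkb1 term was not called under 2 of 14 alternatives, thinned cells (-0.28, adjusted p = 0.785) and without cells of other types (-0.32, 0.397). That of Nfkbia was called under each of 14, with sizes from 0.35 to 1.35. For Rel (-0.46, adjusted p = 0.0555) and Nfkbiz (-0.55, adjusted p = 0.108), higher in Foxp3 cells of both states, the term was not called.

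**Figure D3:**
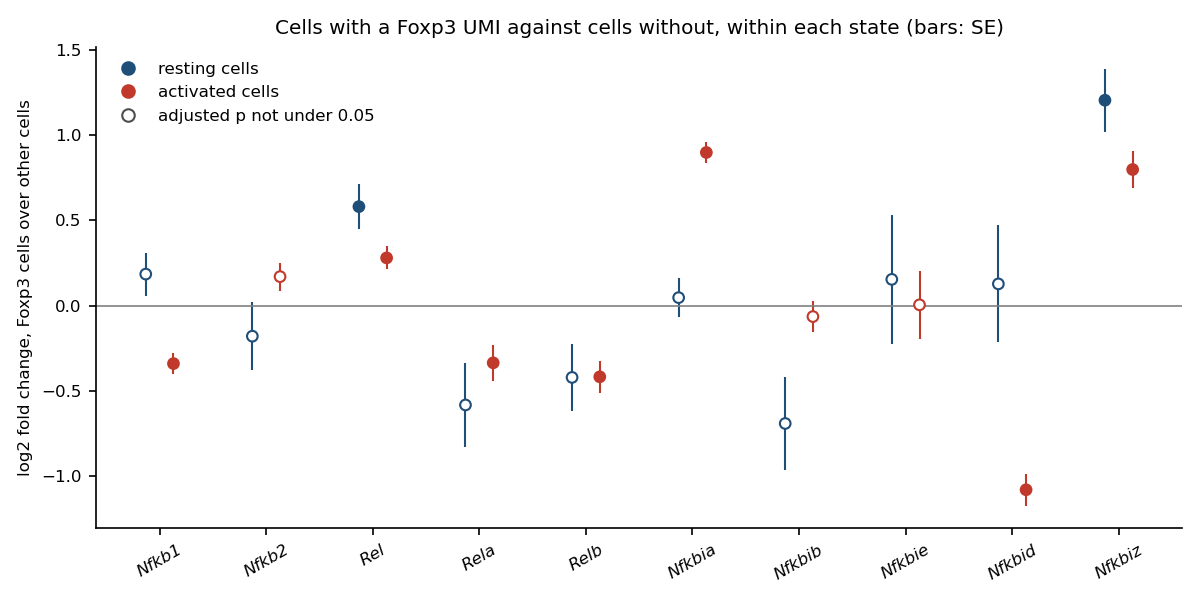
Log2 fold change of each gene between cells with and without a Foxp3 UMI (y axis; bars are SE, n = 4 libraries) in resting (blue) and activated (red) cells; open symbols did not reach an adjusted p under 0.05. Nfkbiz and Rel lie above 0 in both states, Nfkbia stands at 0.90 in activated and 0.05 in resting cells, and Nfkbid at -1.08 in activated cells.

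The remaining pathway genes differed between Foxp3 and other cells in both directions. Of 37 signalling genes tested, 9 were higher and 7 lower in activated Foxp3 cells, and 2 were higher and 5 lower in resting ones, where 31.6% and 11.0% of all genes were called. Of the target genes, 14 were higher and 11 lower of 33 in activated cells, and 6 higher and 4 lower of 29 in resting cells; 1 of them, Il2ra, is also among the regulatory T markers. Il2 (-2.42) and Tnfrsf9 (2.78), the costimulatory receptor 4-1BB, were the farthest apart in activated cells and are named here after their values were seen. All of the 10 genes and both lists are measured against the same other cells, so the values are given side by side and not related to each other.

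None of the 10 genes passed the test between the libraries labelled Irf5-/- and WT. Over all cells, with sex in the model, 0 of the 10 genes were called and 0 had an unadjusted p under 0.05, beside 1.21% of 12855 genes called (155 genes, and 1028 at an unadjusted p under 0.05). Log2 fold changes of the libraries labelled Irf5-/- over those labelled WT ran from -0.14 to 0.14, with adjusted p from 0.747 upwards. DESeq2 called none of the 10 either. With 1 residual degree of freedom, the design can miss differences of this size, and the values do not show that the groups are alike.

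The nearest to a difference over all cells was Nfkbia, with 499, 439, 504 and 429 CPM. Both libraries labelled Irf5-/- lay above both labelled WT (502 ± 4 against 434 ± 7 CPM, SD over 2 libraries each), a gap larger than the spread within either label that did not pass the test. The log2 fold change was 0.14 ± 0.08 (adjusted p = 0.747). Nfkbid was on the other side, with 270.3, 301, 294 and 294 CPM, where the 2 male libraries were nearly equal (-0.14 ± 0.08, adjusted p = 0.769). Nfkb1 had 822, 968, 855 and 796 CPM (-0.13 ± 0.09, adjusted p = 0.843), and Rela 83.4, 92.1, 85.5 and 82.9 CPM (-0.11 ± 0.08, adjusted p = 0.886). In both genes the female library labelled WT was the highest and the male one the lowest, so the pairs of one sex pointed in opposite directions. Without TMM scaling the median of all genes moved by 0.07. Nfkbia, Nfkbid, Nfkb1 and Rela then stood at 0.21, -0.08, -0.07 and -0.05.

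Rel had 407, 434, 458 and 389 CPM and a log2 fold change of 0.01 ± 0.09, with the female pair lower and the male pair higher in the library labelled Irf5-/-. Nfkbiz had 62.6, 58.2, 62.4 and 55.4 CPM, both libraries labelled Irf5-/- above both others (0.07 ± 0.08, adjusted p = 0.952). Nfkb2, Relb, Nfkbib and Nfkbie had log2 fold changes of -0.01, -0.03, 0.02 and -0.06. Their adjusted p-values, like that of Rel, were 0.973 or higher.

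Within activated cells alone 0.682% of 11438 genes and none of the 10 were called, and log2 fold changes ran from -0.18 to 0.14. Within resting cells 0.739% of 10687 genes and none of the 10 were called (-0.12 to 0.25). The genotype term differed between the states in 0.0975% of 11278 genes, again none of the 10 (-0.25 to 0.06). In each of these 3 tests 1 of the 10 genes had an unadjusted p under 0.05, and DESeq2 called none. Over all genes 747 of 11438, 724 of 10687 and 586 of 11278 had an unadjusted p under 0.05 in edgeR, so nothing is read from these single genes. The counts over all genes moved strongly with single libraries. Over all cells they were 47 without the female and 53 without the male library labelled Irf5-/-, and 43 without the male library labelled WT. In activated cells 9, 6, 33 and 201 genes were called without the female and male libraries labelled Irf5-/-, the male and the female library labelled WT, and in resting cells 7, 11, 116 and 148. For the interaction the counts were 10, 5, 21 and 51, in the same order, and none of the 10 genes was among them in any of these fits.

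**Figure D4:**
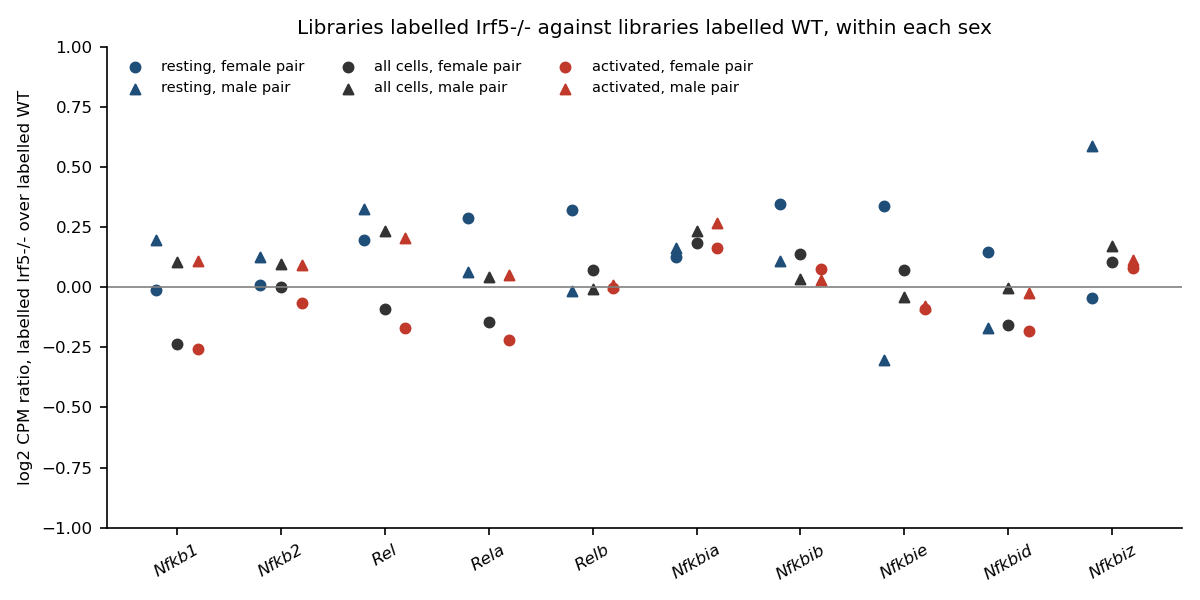
Log2 ratio of the CPM in the library labelled Irf5-/- to that labelled WT (y axis) for each gene, in the female pair (circles) and the male pair (triangles), for resting cells (blue), all cells (black) and activated cells (red). Over all cells the pairs lie on opposite sides of 0 for Nfkb1, Rel, Rela, Relb and Nfkbie, and on the same side for Nfkbia, at 0.19 and 0.23.

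Around the 10 genes, single genes of the pathway differed with the label, where 1.21% of all genes were called over all cells, 0.682% in activated and 0.739% in resting cells. Malt1 was the only one of 38 signalling genes called over all cells, at 160 ± 2 CPM in the libraries labelled Irf5-/- and 213 ± 20 CPM in those labelled WT (log2 fold change -0.47 ± 0.09, adjusted p = 0.0174), and again in activated cells (-0.46, adjusted p = 0.0215). Of 33 target genes Ccl4 (-0.91 ± 0.11, adjusted p = 4.6e-04) and the cytokine Tnf (-0.48 ± 0.08, adjusted p = 0.0119) were lower and Cd83, a surface marker of activated lymphocytes, was higher (0.49 ± 0.08, adjusted p = 0.00787). In activated cells Ccl4 (-0.92, adjusted p = 0.00105) and Tnf (-0.50, adjusted p = 0.0114) were called, and in resting cells Cd83 (1.02, adjusted p = 0.0483). These calls kept their direction under every alternative run but are not firm. Over all cells Malt1 was not called under 6, Ccl4 under 5, Cd83 under 5 and Tnf under 7 of 13 alternatives, leaving out single libraries among them.

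Without single libraries, over all cells, the log2 fold change of Malt1 was -0.45 (adjusted p = 0.443) without the female and -0.49 (0.288) without the male library labelled Irf5-/-, and -0.40 (0.0556) without the female library labelled WT. Ccl4 was at -0.61 (adjusted p = 0.0752) without the male library labelled Irf5-/-, and at -0.84 (0.183) and -0.93 (0.227) without the female and the male library labelled WT. Cd83 was at 0.43 (adjusted p = 0.400) and 0.55 (0.162) without the female and the male library labelled Irf5-/-, and at 0.38 (0.194) without the male library labelled WT. Tnf was not called without any one of the 4 libraries (-0.35 to -0.60, adjusted p from 0.0763 to 0.986). Within activated cells Malt1 was not called without the female (-0.46, adjusted p = 1.00) or the male (-0.46, 0.773) library labelled Irf5-/-, and Ccl4 not without the male library labelled Irf5-/- (-0.68, 0.141) or labelled WT (-0.88, 0.147). Tnf was not called there without any library but the female one labelled WT (-0.40 to -0.61, adjusted p from 0.177 to 1.00). Within resting cells Cd83 was called without the male library labelled WT only (1.72, adjusted p = 6.9e-04; 0.74 to 1.15 without each of the others). Markers of regulatory T cells moved with the label, 6 of 8 higher over all cells (Foxp3 at 1.15), and the sum of the 7 other than Foxp3 was 842 and 898 CPM in the libraries labelled Irf5-/- against 656 and 706 CPM in those labelled WT. Foxp3 cells made up 5.02% and 5.59% of activated cells in the former and 1.96% and 4.05% in the latter. Their part in the differences by label was not tested.

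Co-expression of the 10 genes was described within one state of one library, as Pearson's r of log-scaled UMIs over cells. These correlations are across cells of shared libraries, depend on depth, and carry no test. In activated cells (868 to 3132 per library) all 45 pairs were above 0 in all 4 libraries, with a median r of 0.156. Rel and Nfkbid formed the closest pair, with r of 0.49, 0.59, 0.53 and 0.59 in the 4 libraries. Next came Nfkb1 with Rel (mean r 0.43) and with Nfkbid (0.43), and Rel with Nfkbia (0.39). Rela with Nfkbib was the lowest pair, at 0.03. With every cell thinned to 2000 UMIs 38 of 45 pairs were above 0 in all libraries, the median was 0.065, and the highest mean r of any pair was 0.35.

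In resting cells (458 to 1718 per library) 33 of 45 pairs were above 0 in all libraries, with a median r of 0.056. After thinning it was 24 pairs and a median of 0.034. The highest pair was Nfkb1 with Nfkbia, at 0.15. Rel with Nfkbid, the closest pair in activated cells, stood at 0.02. Values of this size in sparse counts are not read as relations, and the lower counts of Nfkbid in resting cells limit what r can reach there.

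**Figure D5:**
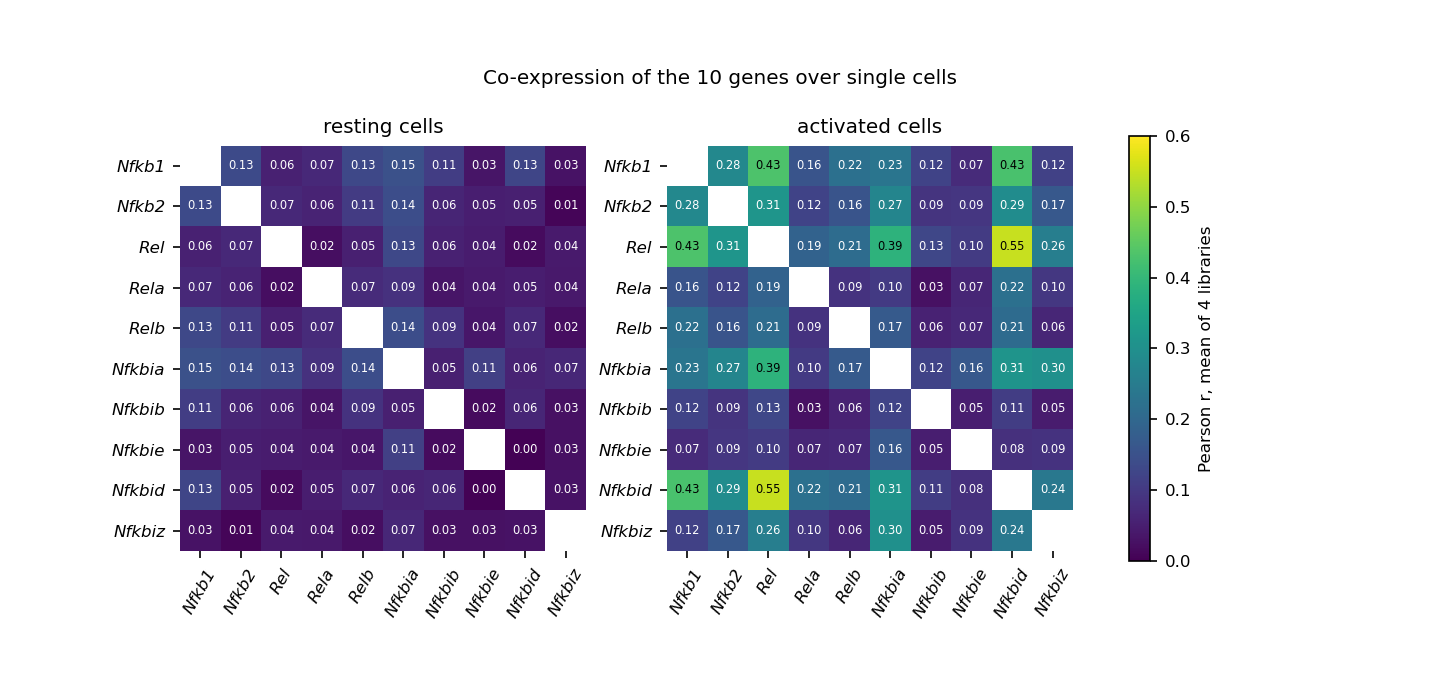
Pearson r between each pair of the 10 genes over single cells, as the mean of the 4 libraries (color and printed value), in resting cells on the left and activated cells on the right. In activated cells the highest values are those of Rel with Nfkbid (0.55), Nfkb1 with Rel (0.43) and with Nfkbid (0.43), and Rel with Nfkbia (0.39). No pair of resting cells exceeds 0.15.

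Among 5082 genes with a UMI in at least 10% of activated cells of every library, the genes most like each of the 10 over activated cells included immediate early genes and members of the family itself. Nfkbid was most like Nr4a1 (mean r 0.65), Nr4a3 (0.63), both orphan nuclear receptors induced by the T cell receptor, and the adaptor Lcp2 (0.62). Rel was most like Nfkbid, Nr4a1 and Nr4a3 (0.55, 0.53 and 0.52), and Nfkb1 most like the histone demethylase Kdm6b (0.46), Rel and Nfkbid. Nr4a1, Nr4a3 and Cd69 belong to the activation genes of the score, which chose these cells. Nfkbia was most like Junb (0.42), the kinase gene Pim1 (0.41) and Traf1 (0.39), a target list gene, and Nfkbiz most like Junb (0.34), Btg2 (0.31) and Nfkbia (0.30). Nfkb2 was most like Junb (0.32), Rel (0.31) and Gadd45b (0.31). For Rela, Relb, Nfkbib and Nfkbie no gene exceeded 0.25, with Nr4a3, Cd69, Gadd45b and Nfkbia at the top. The median of the mean r over all 5082 genes lay between -0.03 and 0.00 for each of the 10.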

How the data were processed

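UMI counts were used as the authors deposited them: 1 matrix of genes by all barcodes for each of the 4 libraries, not normalized. Per the submitters' processing notes, Cell Ranger 6.0.2 and the mm10 build were used, whereas the file headers name a software version 4; the annotation and the use of strand are not given in the sources used here. Cells were chosen and scored as described above. Total UMIs per library ran from 28841161 to 55850754. UMIs were summed per library and class and tested in R 4.3.3 with edgeR 4.0.16 (TMM, filterByExpr, quasi-likelihood test, Benjamini-Hochberg adjustment over all genes tested, called under 0.05), with sex as a covariate for genotype and library as a block within libraries. A standard error is the absolute log2 fold change divided by the square root of F. DESeq2 1.42.0 was an alternative, and the other alternatives were no TMM, no filter, thinned cells, other states and gates, doublets (scanpy 1.11.5) or cells of other types left out, no sex term, a minimum of 1000 UMIs, and each library left out. The genotype comparisons have 1 residual degree of freedom, which edgeR's shared spread supplements. The fits were tested on simulated data, where the share of false calls was above the nominal one in all fits simulated but that of genotype by state, and highest for Foxp3 by state, so calls near the threshold are not firm. All 10 genes passed the filter in each test and all were named; of the 2 pathway lists the 3 largest rises and falls between states and any gene called by genotype were named, except 1 gene that is not reported here. The rule for the 10 genes uses symbols alone, but the set, the lists and the tests were chosen with earlier results of these data known. The fit of the Foxp3 difference by state and the leaving out of cells with 4 or more UMIs of other types were chosen after seeing the data. A search of protein sequences was not done here.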

Additional observations from a re-analysis of the deposited data

Results flagged for a closer look

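Over all cells, the pairs of libraries of one sex lay on opposite sides of 0 for 5 of the 10 genes. For Relb the male ratio was close to 0, at -0.0054. The share of all genes with such a split was not computed, so the count is not read as particular to these genes. The log2 CPM ratio of the library labelled Irf5-/- to that labelled WT was higher in the male than in the female pair by 0.34 for Nfkb1, 0.33 for Rel and 0.19 for Rela. For Relb and Nfkbie the male minus female difference was -0.08 (-0.077) and -0.11. Each pair is 1 library against 1, and these differences between the sexes were not tested. The interaction term of the Foxp3 difference with the state was called for Nfkbia (0.71), Nfkb1 (-0.68) and Nfkbid (-1.40). The Nfkbid term rests on few resting UMIs and was not called under 8 of 14 alternatives, and that of Nfkb1 under 2 of 14.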

How the results depend on the processing

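Between activated and resting cells all 10 genes kept their direction under the 13 alternatives, and only Nfkbie lost its call, without TMM. None of the 10 was called by genotype in any fit. Of the 140 values over alternatives in activated Foxp3 cells, 121 kept direction and call, 11 lost the call, 4 gained one and 4 changed direction; of the 140 in resting Foxp3 cells the numbers were 120, 1, 1 and 18. In resting Foxp3 cells Nfkbie and Nfkbid had the fewest UMIs of the 10 genes, 22 and 28 over the 4 libraries. The part of depth in their changes was not tested. The labels carry no replicate numbers; sex, by which the libraries can be paired across labels, is a term of the genotype fits.

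Counts of all genes called moved under more of the alternatives than the counts of the 10 did, though not always by a larger factor. With DESeq2 they were 47, 26 and 11 for genotype over all, activated and resting cells (edgeR 155, 78 and 79), 7 for genotype by state (11), and 2144 and 645 for Foxp3 cells in activated and resting cells (3217 and 1004). Without TMM, 122 and 32 genes were called by genotype in activated and resting cells. With no filter on low counts the genotype counts were 20 over all, 4 in activated and 213 in resting cells and 65 by state, and 1026 genes, 5 of the 10 among them, for Foxp3 by state (640 and 3). Thinned cells gave 23 and 39 by genotype, 1077 (3 of the 10) and 492 for Foxp3 cells, both in activated and then resting cells, and 306 (1 of the 10) for Foxp3 by state. Leaving out cells with 2 or more UMIs of other types gave 184 by genotype in activated cells, 0 by state, and 1 of the 10 for Foxp3 by state; with 4 or more, 163 in resting cells and 3 by state; without doublets, 39 in resting cells. Without a sex term the genotype counts were 7, 10 and 4, and with cells from 1000 UMIs 254 over all cells. States divided at 0 gave 194 and 207 by genotype and 1677 for resting Foxp3 cells; at 2 they gave 14 and 17, 2019 in activated and 529 (1 of the 10) in resting Foxp3 cells. Leaving out each library gave ranges of 43 to 117, 6 to 201 and 7 to 148 for genotype, 5 to 51 by state, 658 to 928 for resting Foxp3 cells and 422 to 713 for Foxp3 by state. The median r fell to 0.034 in resting and 0.065 in activated cells after thinning.

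Log2 values that changed direction were all of genes not called, and the cause was not tested. By genotype over all cells these were, without TMM, Nfkb2 (0.051), Relb (0.033) and Nfkbie (0.010); thinned, Nfkbiz (-0.043); and without cells of other types, Rel (-0.0084, or -0.0070 from 4 UMIs) and Nfkbib (-0.011). Leaving out each library, Nfkb2 ranged from -0.041 to 0.010, Rel from -0.082 to 0.095, Relb from -0.13 to 0.061 and Nfkbib from -0.047 to 0.085. In activated Foxp3 cells they were Nfkbib without TMM (0.13), and Nfkbie with no filter (-0.0024) and with states at 2 (-0.32); Nfkbie ranged from -0.062 to 0.098 over the libraries left out. In resting Foxp3 cells Nfkb2 changed with states at 0 (0.013), and Nfkbia with no filter (-0.016), thinned (-0.20), without cells of other types (-0.13) and with states at 2 (-0.11). Nfkbie changed when thinned (-0.14) and with at least 2 Foxp3 UMIs (-0.11). Nfkbid changed with DESeq2 (-0.053), thinned (-0.64), without cells of other types (-0.43) or doublets (-0.61), and with states at 0 (-0.57) or 2 (-0.57). Over the libraries left out, Nfkb2 ranged from -0.34 to 0.020, Nfkbia from -0.026 to 0.13, Nfkbie from -0.31 to 0.47 and Nfkbid from -0.61 to 0.32.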
